A study of Mus musculus with 6 samples.

Results

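The genes described here are 10 members of the bone morphogenetic protein (BMP) pathway and its Id target genes, measured by RNA-seq in mouse medial ganglionic eminence (MGE) tissue of embryonic day 14. They are the ligands Bmp4 and Bmp7, the type I receptors Bmpr1a and Bmpr1b, the inhibitory SMADs Smad6 and Smad7, and Id1, Id2, Id3 and Id4. The members were a list of symbols, and all 10 were found among the 49315 genes of the count table and passed the filter on low counts. The MGE is a germinal zone of the ventral forebrain and a source of cortical interneurons. The KO group was Nkx2.1-Cre with Prdm16fl/fl and Ai14, and the WT group was Nkx2.1-Cre with Prdm16+/+ and Ai14, so Cre and the Ai14 reporter were present in both. Each group held 3 libraries, and each library came from 1 pool of 3 embryos (6 eminences). Nkx2.1-Cre recombines cells of the Nkx2.1 lineage, whereas the dissected tissue also holds vessels, microglia and other cells outside that lineage.

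BMP ligands are secreted dimers that bring together type I and type II receptor kinases at the cell surface. The type I receptors phosphorylate SMAD1, SMAD5 and SMAD9, which enter the nucleus with SMAD4 and activate target genes, among them the Id genes and the inhibitors Smad6 and Smad7. Id proteins have a helix-loop-helix domain but no basic region. They bind E proteins and so keep these and their proneural partners from DNA, and in the embryonic brain they are known for holding progenitors undifferentiated.

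Total counts ran from 36517047 to 55552298 in KO libraries and from 33188277 to 46301483 in WT libraries. Values below are CPM, read counts per library put on a common scale with library sizes adjusted by the trimmed mean of M-values (TMM), as mean ± SD over 3 libraries. Adjusted p-values are from edgeR's quasi-likelihood test over 18079 genes with Benjamini-Hochberg adjustment, and a gene passed at an adjusted p under 0.05. Prdm16, the targeted gene, had 50.2 ± 4.02 CPM in KO pools and 49.4 ± 5.55 CPM in WT pools (edgeR adjusted p = 0.884). The floxed exons are not named in the labels, so a count over the whole gene may be unable to check the KO label. Every direction below rests on that label. KO 1 stood apart on the second principal component, at 34.99 against -11.6 and -12.4 in KO 2 and KO 3. KO 1 had 1.92 CPM of Xist, the X-inactivation transcript, and KO 3 had 1424 CPM, while the other pools held Xist as well as Y-linked transcripts. The part of embryo sex in the results was not tested. In bulk tissue, a change in the number of cells that express a gene and a change in RNA per cell cannot be told apart.

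Among the 10 members, Id1, Id4 and Bmpr1b rose in KO pools, none fell, and 7 did not pass. Across all tested genes 20.2% were called, 9.72% as higher and 10.5% as lower. In 5 members the KO and WT libraries did not overlap (4 with KO above WT, 1 with KO below WT), against 39.9% of all tested genes (20.3% with KO above WT and 19.6% with KO below WT). The members' median log2 fold change was 0.13, beside -0.0024 over all tested genes. The count of higher members was 4 without KO 1, with Id3 added, and 2 without KO 2, WT 2 or WT 3, when Bmpr1b no longer passed. The share of all tested genes called moved the same way. It was 41.5% without KO 1, and 7.29%, 6.49% and 6.40% without KO 2, WT 2 and WT 3.

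**Figure D1:**
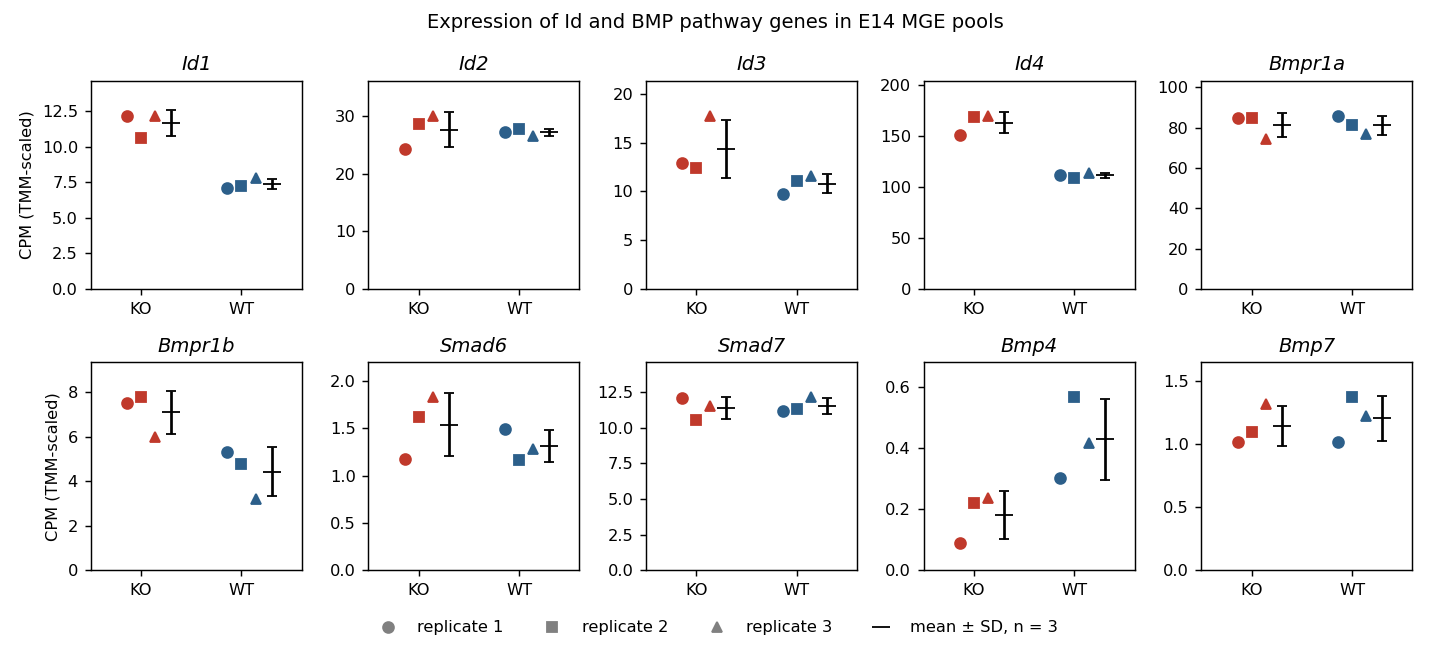
CPM of each member (y axis, from 0) in the 3 KO and 3 WT pools, with 1 symbol per replicate number and bars for mean ± SD. For Id1, Id3, Id4 and Bmpr1b every KO pool lies above every WT pool, for Bmp4 every KO pool lies below, and the other members overlap.

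The ligand transcripts were scarce. Bmp4 encodes a ligand that patterns the dorsal forebrain midline. Its read counts were 4, 8 and 13 in KO 1 to 3, against 14, 19 and 16 in WT 1 to 3. That is 0.09, 0.22 and 0.24 CPM in KO pools and 0.30, 0.57 and 0.42 CPM in WT pools. All KO values lay below all WT values, but the difference did not pass (log2 fold change -1.18, SE 0.41, edgeR adjusted p = 0.0684). With no filter on low counts it did pass (edgeR adjusted p = 0.0433). Bmp7, which encodes a ligand of meninges and choroid plexus, had 1.02, 1.10 and 1.32 CPM in KO pools and 1.02, 1.37 and 1.23 CPM in WT pools. The groups overlapped and the 95% interval of the fold was 0.708 to 1.31 (edgeR adjusted p = 0.868). The Bmp4 gene (ENSMUSG00000021835) lies at GRCm38 chr14:46383520-46390669 and Bmp7 (ENSMUSG00000008999) at chr2:172868012-172940321. An antisense gene, Gm15217, shares 89 exonic bases with Bmp4, and no source used here gives the strand setting of the counting.

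Of the 10 other BMP ligand genes, 5 were too low to test. Among the 5 tested, 2 fell and 3 did not pass. Bmp6 fell to 0.29, 0.08 and 0.25 CPM in KO 1 to 3, against 0.98, 0.87 and 0.96 CPM in WT 1 to 3. Its fold was 0.235 (95% interval 0.141 to 0.394, edgeR adjusted p = 0.00392). Bmp3, whose product opposes other BMPs in bone, fell to 0.18, 0.19 and 0.31 CPM in KO pools, against 0.76, 0.75 and 1.17 CPM in WT pools (fold 0.264, edgeR adjusted p = 0.00469). For both genes each KO pool was below each WT pool, at 3 to 17 reads per KO library and 25 to 45 per WT library. Bmp2 averaged 0.361 ± 0.144 CPM in KO and 0.579 ± 0.184 CPM in WT pools and did not pass (edgeR adjusted p = 0.213), nor did Bmp5 (0.368 ± 0.0620 CPM in KO and 0.464 ± 0.0403 CPM in WT pools, edgeR adjusted p = 0.361).

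Of the type I receptors, Bmpr1b rose and the more abundant Bmpr1a did not pass; the difference between their folds was not tested. Bmpr1a (ENSMUSG00000021796, chr14:34410734-34503341) had 84.7, 84.6 and 74.6 CPM in KO 1 to 3, and 86.0, 81.2 and 76.7 CPM in WT 1 to 3. The groups overlapped throughout, and the 95% interval of the fold was 0.898 to 1.11 (edgeR adjusted p = 0.994). Its 290 exonic bases shared with the antisense gene Gm17110 cannot be assigned to a strand. Bmpr1b (ENSMUSG00000052430, chr3:141837136-142169425) had 7.52, 7.77 and 5.98 CPM in KO pools, against 5.31, 4.78 and 3.21 CPM in WT pools. The lowest KO pool, KO 3, was above the highest WT pool, WT 1, and WT 3 was the lowest of all. Bmpr1b rose 1.59-fold (95% interval 1.2 to 2.12, edgeR adjusted p = 0.0325). It no longer passed without KO 2 (edgeR adjusted p = 0.111), WT 2 (0.0808) or WT 3 (0.0922). Per length, Bmpr1a made up 91.5 ± 0.539% of the summed transcripts of both receptors in KO pools and 94.6 ± 1.03% in WT pools.

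Sequence upstream of RefSeq starts of the receptor genes is shown because, of these near relatives, 1 rose and the other did not pass. RefSeq promoter windows on GRCm38.p6 were found for 7 of the 10 members, with several starts for Bmpr1b. The runs below are 5′ to 3′ on the minus strand, lie outside annotated exons of the gene, and carry in capitals GGCGCC, a GC-rich element bound by SMAD proteins, and GTCT, the core SMAD-binding element (AGAC on the other strand). The Bmpr1b run is chr3:141982265-141982514, directly before its most upstream RefSeq start. The Bmpr1a run is chr14:34502688-34502796, upstream of the RefSeq start at 34502546 but not directly before it. Both runs lie inside the GENCODE spans of their genes given above, so neither is sequence before the whole annotated gene.
Bmpr1b: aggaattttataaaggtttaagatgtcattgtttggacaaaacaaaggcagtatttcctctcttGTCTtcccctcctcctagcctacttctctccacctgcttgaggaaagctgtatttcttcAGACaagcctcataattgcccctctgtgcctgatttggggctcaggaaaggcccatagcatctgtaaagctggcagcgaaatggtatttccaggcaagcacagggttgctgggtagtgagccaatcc
Bmpr1a: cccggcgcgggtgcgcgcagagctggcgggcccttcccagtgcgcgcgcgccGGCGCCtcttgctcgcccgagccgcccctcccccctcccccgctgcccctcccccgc
The Bmpr1b run was 46.8% GC and held 2 GTCT and 0 GGCGCC matches, and the runs before its other RefSeq starts, which overlap each other and are not shown, held 6 and 3 GTCT and 0 GGCGCC matches. The Bmpr1a run was 84.4% GC and held 1 GGCGCC and 0 GTCT matches. Over both strands, 9.59% of 32851 RefSeq windows of 250 bases held GGCGCC and 82.9% held GTCT, so a GTCT match is common. The motifs do not overlap in letters, and a match is a description of these letters only.

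Of the 5 other BMP receptor genes 1 fell and 4 did not pass. Bmpr2, the type II receptor gene, fell to 119, 106 and 99.8 CPM in KO 1 to 3, against 134, 130 and 124 CPM in WT 1 to 3 (fold 0.839, edgeR adjusted p = 0.0348). That call was lost without each single library other than KO 1. Acvr1, another type I receptor gene, had 21.4 ± 0.625 CPM in KO and 24.4 ± 1.32 CPM in WT pools without passing (edgeR adjusted p = 0.0880). Acvrl1, the endothelial type I receptor gene, had a fold of 0.884 (edgeR adjusted p = 0.303), and Acvr2b, a type II receptor gene, 0.816 (edgeR adjusted p = 0.324).

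Neither inhibitory SMAD gene passed. Smad6 (ENSMUSG00000036867, chr9:63953076-64022059), whose product blocks BMP-activated SMADs, had 1.17, 1.62 and 1.83 CPM in KO pools and 1.5, 1.17 and 1.28 CPM in WT pools. KO 2 and KO 3 exceeded every WT pool, whereas KO 1 was level with the lowest (fold 1.17, 95% interval 0.848 to 1.62, edgeR adjusted p = 0.460). Smad7 (ENSMUSG00000025880), which inhibits both BMP and TGF-beta receptors, had 12.1, 10.5 and 11.5 CPM in KO pools and 11.1, 11.3 and 12.1 CPM in WT pools. The groups were interleaved, and the fold interval of 0.860 to 1.14 spanned no change (edgeR adjusted p = 0.916).

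Among the 4 genes of SMAD effectors, Smad9 was too low to test, 1 fell and 2 did not pass. Smad5 fell to 218, 192 and 180 CPM in KO 1 to 3, against 255, 250 and 230 CPM in WT 1 to 3 (fold 0.802, edgeR adjusted p = 0.0209). The groups did not overlap, but KO 1 was the nearest to WT, and the call was lost without KO 2, KO 3, WT 1 or WT 2. Smad1 had 65.4 ± 1.84 CPM in KO and 59.6 ± 2.12 CPM in WT pools (fold 1.10, edgeR adjusted p = 0.111). Smad4, the partner shared with the TGF-beta pathway, had 118 ± 14.5 CPM in KO and 137 ± 7.85 CPM in WT pools (edgeR adjusted p = 0.0992).

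Of the 15 antagonists and modulators 1 rose, 3 fell and 11 did not pass. Fst, which encodes follistatin, a secreted binder of activins and BMPs, rose 2.28-fold (95% interval 1.65 to 3.16, edgeR adjusted p = 0.00621). It had 4.76, 4.78 and 7.27 CPM in KO 1 to 3, against 1.91, 2.78 and 2.76 CPM in WT 1 to 3, with KO 3 the highest. Nbl1, a gene for a secreted BMP antagonist, fell to 2.98, 2.77 and 3.15 CPM in KO pools, against 4.79, 5.56 and 5.19 CPM in WT pools (fold 0.576, edgeR adjusted p = 0.00325). Both calls held in all 14 alternatives tried. Grem1, which encodes the BMP antagonist gremlin 1, fell to 1.58 ± 0.223 CPM in KO pools, against 2.37 ± 0.160 CPM in WT pools (edgeR adjusted p = 0.0327). Ski, a gene for a SMAD corepressor that also binds PRDM16, fell to 155 ± 8.07 CPM in KO pools, against 180 ± 7.00 CPM in WT pools (edgeR adjusted p = 0.0323). The calls of Grem1 and Ski were lost without each single library other than KO 1, and that of Grem1 also with the replicate number as a block. Noggin (Nog) had 11.1 ± 1.78 CPM in KO and 8.94 ± 0.552 CPM in WT pools and did not pass (edgeR adjusted p = 0.103).

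Over these pathway genes, the ligands, receptors, effectors, antagonists and other targets beyond the 10 members, 30 of 37 could be tested, of which 1 rose, 7 fell and 22 did not pass. Across all tested genes in the same fit 20.2% were called, 9.72% as higher and 10.5% as lower. The pathway genes' median log2 fold change was -0.16. Without KO 1, when 41.5% of all tested genes were called, 6 rose and 12 fell. Without any other single library 1 or 2 rose and 3 or 4 fell, when 6.40% to 10.8% of all tested genes were called.

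**Figure D2:**
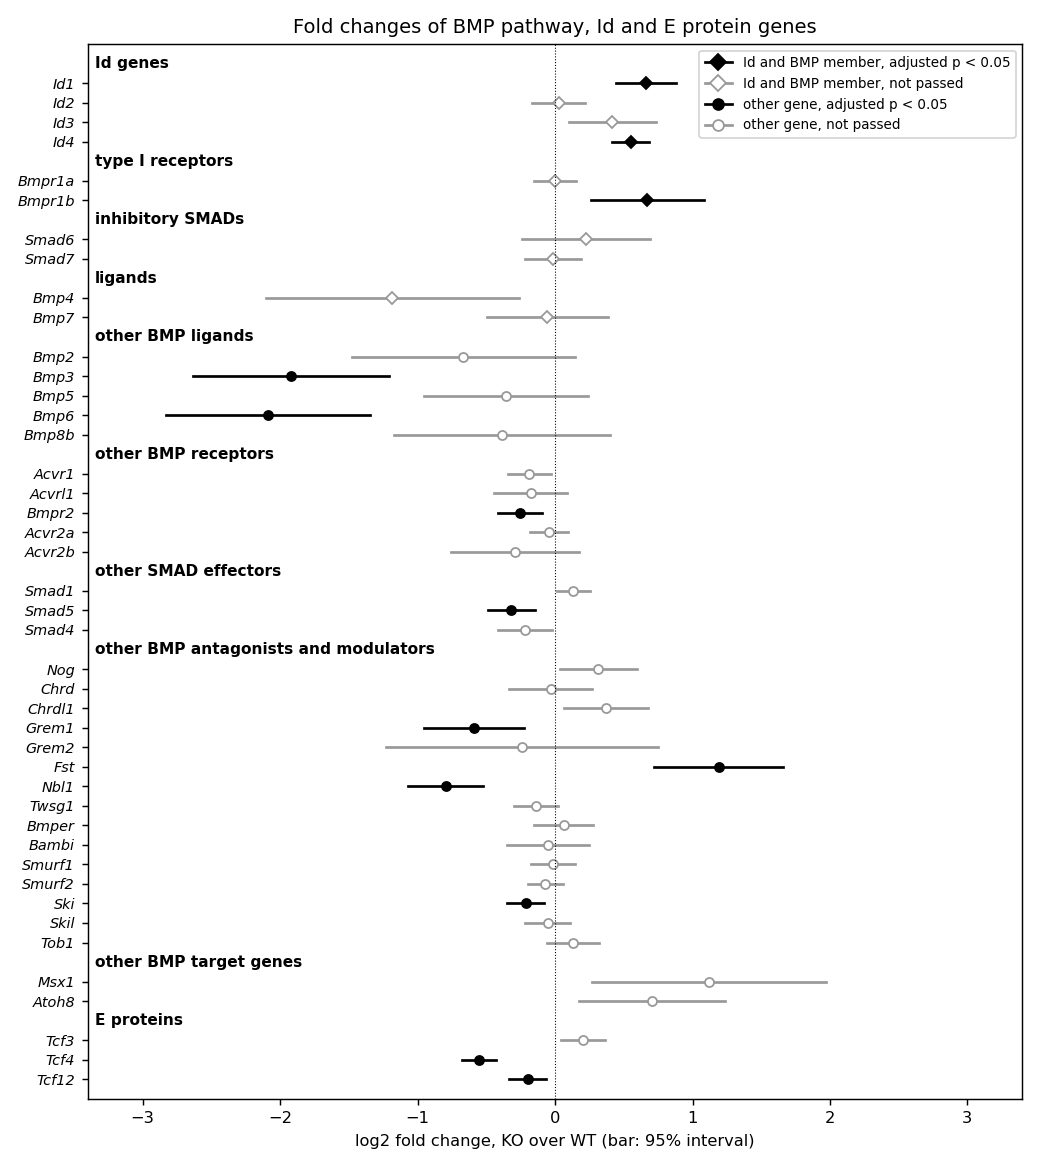
Log2 fold change, KO over WT (x axis), with its 95% interval for the 10 members (diamonds) and the tested other pathway and E protein genes (circles), grouped by role. Black marks passed the edgeR test over all genes and grey open marks did not; Id1, Id4, Bmpr1b and Fst are the black marks on the right, and Bmp3 and Bmp6 lie farthest to the left.

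Id1 and Id4 rose and Id2 did not pass. Id1 (ENSMUSG00000042745, chr2:152736251-152737410), the Id gene most often used as a readout of BMP signalling, had 12.2, 10.7 and 12.2 CPM in KO 1 to 3, against 7.11, 7.26 and 7.80 CPM in WT 1 to 3. Each KO pool was above each WT pool by more than the spread within either group. It rose 1.58-fold (log2 fold change 0.66, SE 0.10, 95% interval of the fold 1.36 to 1.84, edgeR adjusted p = 0.00267).

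Id4 (ENSMUSG00000021379, chr13:48261228-48266026), an Id gene of neural progenitors, had 151, 168 and 170 CPM in KO 1 to 3, against 112, 109 and 114 CPM in WT 1 to 3. The WT pools differed little among themselves, and the lowest KO pool, KO 1, stood well above them. It rose 1.46-fold (log2 fold change 0.55, SE 0.06, 95% interval 1.33 to 1.61, edgeR adjusted p = 0.000549). The antisense genes A330033J07Rik and Gm49291 share 82 and 171 exonic bases with it. The calls of Id1 and Id4 held in all 14 alternatives, with log2 fold changes of 0.64 to 0.72 for Id1 and 0.53 to 0.61 for Id4.

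Id3 (ENSMUSG00000007872, chr4:136143497-136145755), which often accompanies Id1 in progenitors and vessels, had 12.9, 12.4 and 17.8 CPM in KO 1 to 3, against 9.75, 11 and 11.6 CPM in WT 1 to 3. All KO pools were above all WT pools, with KO 3 far above the rest, and the difference did not pass (fold 1.33, 95% interval 1.07 to 1.66, edgeR adjusted p = 0.0641). It passed without KO 1 (edgeR adjusted p = 0.0256), with no filter on low counts (edgeR adjusted p = 0.00654) and in DESeq2 (DESeq2 adjusted p = 0.0281). Id3 lies on the same chromosome as Prdm16 (chr4:154316125-154636873), as do Nbl1 and Ski, which were called lower. Of these genes Ski (chr4:155154075-155222592) lies nearest to Prdm16. Hes5 (chr4:154960923-154962371), a radial glia marker described below, lies nearer still. The part of linkage to the targeted allele was not tested. Id2 (ENSMUSG00000020644, chr12:25093799-25097140), an Id gene also found in young neurons, had 24.2, 28.7 and 30.1 CPM in KO pools and 27.3, 27.7 and 26.5 CPM in WT pools. KO 1 lay below and KO 2 and KO 3 above the narrow WT range, and the fold interval was 0.891 to 1.16 (edgeR adjusted p = 0.859).

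The run upstream of the Id4 start is shown because Id4 is the most abundant member and rose. It is chr13:48260866-48261115 on the plus strand of GRCm38.p6, directly before the RefSeq start, with GGCGCC in capitals.
Id4: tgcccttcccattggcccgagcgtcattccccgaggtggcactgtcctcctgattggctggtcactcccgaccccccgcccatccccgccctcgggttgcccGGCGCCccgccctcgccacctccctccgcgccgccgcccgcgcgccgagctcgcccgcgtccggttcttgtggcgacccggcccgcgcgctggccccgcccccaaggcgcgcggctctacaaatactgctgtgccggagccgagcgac
It was 75.6% GC and held 1 GGCGCC match and 0 GTCT matches. It held 0 matches to the E box CANNTG, the site of E proteins and their partners, which was present in 66.2% of the RefSeq windows. The GGCGCC match was not particular to Id4. The 250-base window of Id2, which did not pass, held 1 GGCGCC, 1 GTCT and 1 CANNTG match. That of Id3 held 0, 2 and 0. Both overlap annotated exons of their gene and are not shown, and Id1 had no window.

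Levels of different genes were compared per exonic length as TPM, a length-normalised share of all transcripts. TPM is scaled to all transcripts of a library, so small group differences can differ from those in CPM, and it is used here to rank genes. The length joins all annotated exons of a gene. Ranks and shares of genes with close values may therefore not be those of their transcripts. Id4 was the most abundant member, with 150 to 159 TPM in KO pools and 112 to 115 TPM in WT pools. Bmpr1a (41.8 to 51.0 TPM in KO and 47.1 to 52.8 TPM in WT pools) and Id2 (38.0 to 44.0 TPM in KO and 42.4 to 45.2 TPM in WT pools) came next, with overlapping ranges in KO pools only. Id1 followed with 33.3 to 40.2 TPM in KO pools and 23.9 to 26.2 TPM in WT pools, and its range overlapped that of Id3 (25.2 to 35.3 TPM in KO and 21.2 to 25.3 TPM in WT pools) in both groups. In KO pools the ranges of Id1 and Id2 overlapped as well, while in WT pools they did not. Smad7 (8.46 to 10.2 TPM in KO and 9.6 to 10.5 TPM in WT pools), Bmpr1b (3.57 to 4.82 TPM in KO and 2.10 to 3.47 TPM in WT pools) and Smad6 (1.40 to 2.03 TPM in KO and 1.44 to 1.82 TPM in WT pools) were lower in that order without overlap. Bmp7 and Bmp4 were the lowest, Bmp4 with 0.154 to 0.373 TPM in KO and 0.526 to 1.00 TPM in WT pools, and their ranges overlapped in WT pools.

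The summed level of the 4 Id genes was 256, 260 and 274 TPM in KO 1 to 3, against 202, 207 and 209 TPM in WT 1 to 3. Id2 made up 15.8 ± 0.823% of this sum in KO and 21.3 ± 0.850% in WT pools, with no overlap. Id4 made up 59.1 ± 1.86% in KO and 55.1 ± 0.845% in WT pools. The Id1 share was 14.1 ± 1.48% in KO and 12.1 ± 0.365% in WT pools, and the Id3 share 11.1 ± 1.63% in KO and 11.5 ± 0.850% in WT pools.

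**Figure D3:**
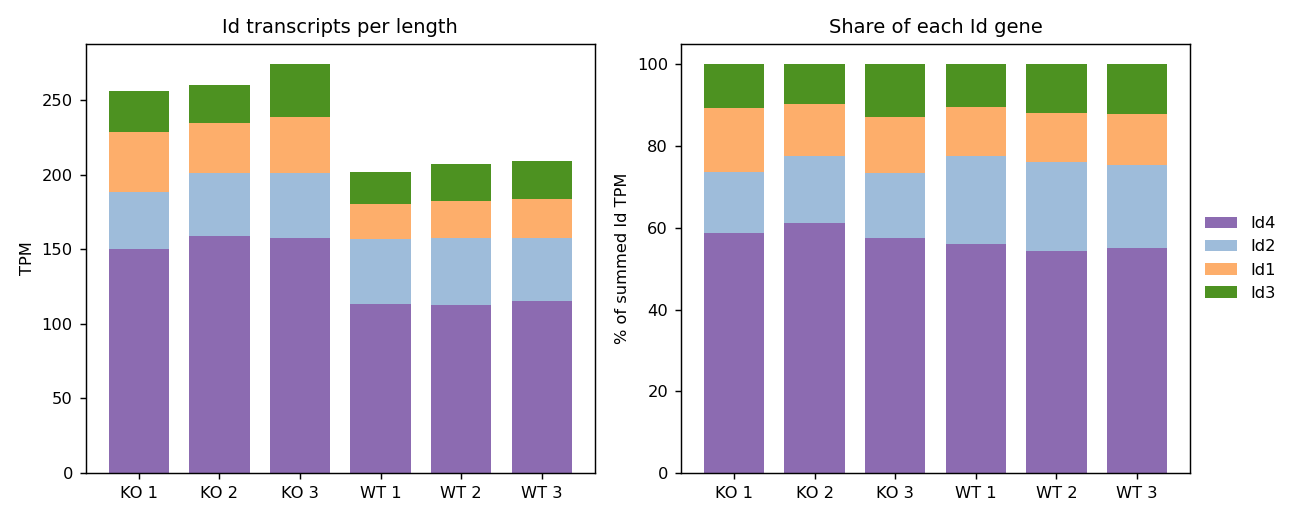
Stacked TPM of the Id genes in each pool (left, y axis in TPM) and the share of each gene in the sum (right, y axis in percent). The KO pools reach 256 to 274 TPM and the WT pools 202 to 209 TPM, and the Id2 band is the narrower in KO pools as a share.

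E proteins are the helix-loop-helix partners that Id proteins bind. Tcf4 fell to 362, 358 and 357 CPM in KO 1 to 3, against 546, 519 and 516 CPM in WT 1 to 3. The KO pools were nearly level with each other and all far below WT (fold 0.681, 95% interval 0.624 to 0.743, edgeR adjusted p = 0.000374), and the call held in all 14 alternatives. Tcf12 fell to 291 ± 8.64 CPM in KO pools, against 334 ± 18.1 CPM in WT pools (fold 0.872, edgeR adjusted p = 0.0456), and passed in 7 of 14 alternatives. Tcf3 had 359 ± 29.0 CPM in KO and 312 ± 14.2 CPM in WT pools and did not pass (edgeR adjusted p = 0.0743).

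Of the other target genes of BMP signalling, Msx1 and Msx2 were near the limit of detection and Atoh8 was low. Msx1, a homeobox gene of the dorsal midline, had 11, 10 and 20 reads in KO 1 to 3, against 5, 6 and 5 in WT 1 to 3 (fold 2.17, 95% interval 1.2 to 3.92, edgeR adjusted p = 0.0640). Atoh8, a helix-loop-helix gene, had 1.09 ± 0.283 CPM in KO and 0.680 ± 0.0333 CPM in WT pools (fold 1.63, edgeR adjusted p = 0.0618). Neither passed, although for both every KO pool was above every WT pool. Msx2 was too low to test, with 0, 1 and 9 reads in KO 1 to 3 and 0 in each WT library.

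Markers of the cell types that could carry these transcripts were counted beside them. For comparison, 9.72% of all tested genes were called higher and 10.5% lower. Of 9 radial glia genes 8 rose and 1 fell, and their summed level was 2635 to 3133 CPM in KO pools and 1813 to 1921 CPM in WT pools. The Notch target Hes1 in that list had 24.7 ± 3.06 CPM in KO and 13.2 ± 0.606 CPM in WT pools (edgeR adjusted p = 0.000563). Of 10 endothelial genes 3 fell and 7 did not pass (summed level 172 to 207 CPM in KO and 229 to 232 CPM in WT pools). Of 7 pericyte genes 6 fell (188 to 250 CPM in KO and 224 to 237 CPM in WT pools). Of 6 neuronal genes 3 fell and 3 did not pass (3729 to 3858 CPM in KO and 4172 to 4274 CPM in WT pools). Of 6 cortical genes 4 rose (45.7 to 62.6 CPM in KO and 20.2 to 40.8 CPM in WT pools). Of 8 genes of choroid plexus and cortical hem 5 were tested, and Otx2 alone rose, to 31.6 ± 3.88 CPM in KO against 12 ± 1.26 CPM in WT pools. The choroid plexus gene Ttr was too low to test, at 0.0274 to 0.109 CPM in KO and 0.0299 to 0.235 CPM in WT pools. Of 6 meningeal genes 3 were tested and none passed. Of 6 microglial genes 2 fell, and of 7 globin genes 3 rose and 2 fell. Among 7 MGE genes Lhx8 rose, Lhx6 and Dlx1 fell and 4 did not pass, and the MGE factor Nkx2-1 had 769 CPM in KO and 647 CPM in WT pools (edgeR adjusted p = 0.112). No listed marker was at 0 in all libraries. The part of these cell types in the results on the members was not tested.

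The genes whose profiles over the 6 libraries were most like those of the Id genes were found by the root mean square difference of centred log2 CPM among 9915 or 9916 protein-coding genes with at least 10 CPM. For Id4 they were Pgpep1 (difference 0.032 on the log2 scale), Hint2 (0.036) and Ucp2 (0.041). For Id1 they were the Wnt receptor gene Fzd7 (0.054), Nxn (0.066) and the imprinted gene Peg10 (0.074). For Id3 they were Pou2f2 (0.078), Mrps6 (0.085) and Cnih2 (0.086), and for Id2, whose group means were nearly level, Acadm (0.022), Zfp511 (0.025) and Gpt (0.025). With 2 groups, such likeness for Id1, Id3 and Id4 mostly reflects a similar difference between KO and WT pools. Id2 and its matches instead had a larger SD among KO than among WT pools (3.06 against 0.626 CPM for Id2). The likeness is given as a description.

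**Figure D4:**
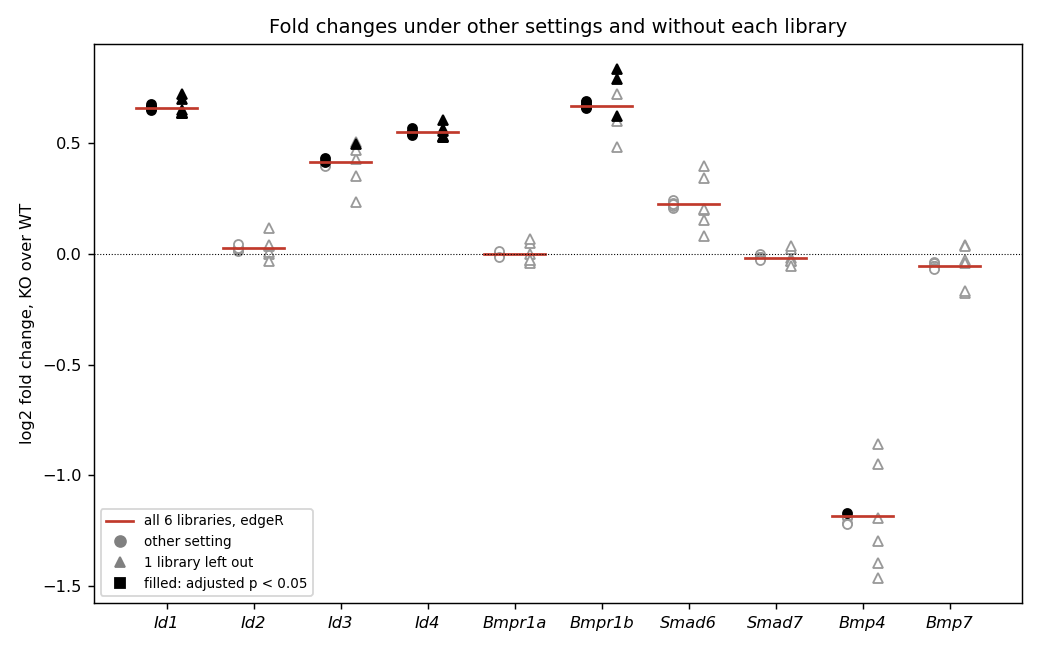
Log2 fold change, KO over WT (y axis), of each member with all 6 libraries (red line), under other settings (circles) and without each single library (triangles); filled marks passed at an adjusted p under 0.05. Id1 and Id4 stay filled in all 14 alternatives, Bmpr1b is open in 3 that leave out a library, and Bmp4 spreads most.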

How the data were processed

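Total RNA from pools of dissected MGE was sequenced. The submitters' processing notes name the build GRCm38 and the tools STAR 2.5.2b, Trimmomatic 0.36, Subread 1.5.2, featureCounts and DESeq2. Neither annotation release nor strand setting is stated there. Every test started from the raw counts deposited by the authors, 1 value per Ensembl gene and library. Their normalized table has 2 columns with 1 name and was left out.

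The labels gave groups and replicate numbers. They describe separate pools, so p-values measure the spread between pools. GENCODE M21 (GRCm38) gave symbols, positions and exonic lengths and held 49056 of the 49315 gene IDs. Low genes were removed by filterByExpr with a minimum count of 10 and a minimum total of 15. The test of KO against WT was the robust quasi-likelihood test in edgeR 4.0.16 (R 4.3.3) after TMM scaling, and the SE is the log2 fold change over the square root of F. The procedure was tested on simulated data. The members, gene lists and the rule for named genes were chosen with earlier results of these data known. Named were all members, genes of each pathway list that passed and up to 4 with the smallest p, and up to 3 per marker list. Nkx2-1, Ttr, Nog, Smad9 and Msx2 were named after their values were seen. Sox2, Vim, Fabp7, Hes5, Pax6, Slc1a3 and Notch3 were also named beyond this rule, with their values known. Alternatives were other scalings, other filters on low counts, DESeq2 1.42.0, limma voom (limma 3.58.1), no robust spread, a replicate block and each library left out. Profiles were compared as log2 CPM (prior count 2). Promoter windows came from RefSeq (GRCm38.p6).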

Additional observations from a re-analysis of the deposited data

How the results depend on the processing

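Over 14 alternatives, 122 of 138 combinations of a member and a setting had the same direction and the same call as reported. Bmp4 had no adjusted p in DESeq2 and did not pass the filter of at least 1 CPM in 3 libraries. Bmpr1b lost its call in 3 alternatives, Id3 gained one in 3 and Bmp4 in 1. The 9 changes of direction concerned members near no change. Without filtering, Bmpr1a was at 0.016 and Smad7 at 0.0016 (log2 fold change). Leaving out 1 library gave -0.041 to 0.066 for Bmpr1a, -0.053 to 0.035 for Smad7, -0.17 to 0.042 for Bmp7 and -0.033 to 0.12 for Id2. Without filtering, 4 members were higher and 1 lower, and 3 pathway genes were higher and 8 lower, when 13.7% of all tested genes were called. With a replicate block, 862 genes of all tested were higher and 1219 lower, and the same 3 members were higher. Libraries with the same number had deviations that correlated at -0.076, -0.12 and 0.026, so nothing shows that the numbers pair the pools. Without 1 library at a time, 464 to 3752 genes of all tested were higher and 727 to 3804 lower, with 2 to 4 higher members, and 1 to 6 higher and 3 to 12 lower pathway genes, the largest counts being those without KO 1, and with fewer samples in each fit. Other causes were not tested. Depth limits Bmp4, Bmp3, Bmp6, Msx1 and Msx2, which had few reads per library.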

Other observations

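Ratios within a library do not depend on any scaling factor. The ratios were chosen after the values of the members had been seen. Per exonic length, Id4 over Id2 was 3.96, 3.72 and 3.58 in KO 1 to 3, against 2.59, 2.49 and 2.72 in WT 1 to 3. Id1 over Id2 was 1.06, 0.781 and 0.851 in KO pools, against 0.547, 0.550 and 0.619 in WT pools. Both ratios were higher in every KO pool than in every WT pool, whereas Id4 over Id1 overlapped (4.23 ± 0.512 in KO and 4.55 ± 0.172 in WT pools). Id4 over its binding partner gene Tcf4 was 3.23 ± 0.228 in KO and 1.5 ± 0.0567 in WT pools. The length used joins all annotated exons of a gene, 27382 bases for Tcf4 and 3849 for Id4. The ratio therefore does not show which gene has more transcripts. In reads Tcf4 was the higher, with 359 CPM against 163 for Id4 in KO and 527 against 111 in WT pools. Against progenitor genes, Id4 over Sox2 was 0.180 ± 0.00159 in KO and 0.153 ± 0.00618 in WT pools without overlap, and Id4 over Nes was 0.398 ± 0.0192 in KO and 0.433 ± 0.0355 in WT pools with overlap. Of the radial glia genes that rose, only Sox2 (fold 1.25) had a smaller fold than Id4 (1.46). The folds of Nes, Sox9, Vim, Fabp7, Hes1, Hes5 and Pax6 were larger, from 1.55 for Sox9 to 2.29 for Hes5. Slc1a3 fell (fold 0.637). Differences between these folds were not tested. Bmpr1b over Bmpr1a was 0.0926 ± 0.00642 in KO and 0.0577 ± 0.0115 in WT pools, without overlap.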
